A study of Mus musculus with 2 samples.

Results

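This section describes 41 genes of the contractile apparatus and calcium handling of skeletal muscle in interscapular brown adipose tissue (iBAT), a fat depot on the upper back whose cells burn fuel to make heat. The genes were taken by symbol from a fixed list, and all 41 were found among the 27179 genes of the deposited tables. The groups compared were wild-type C57BL/6N mice and mice of the same strain carrying a Ucp1 knockout (Ucp1-KO, Δ/Δ), both described as male, 20 days old and untreated. Uncoupling protein 1 (UCP1) lets brown fat mitochondria release energy as heat. Each group was 1 RNA library made from the iBAT of 3 pooled animals, so nothing was replicated. No p-value or standard deviation can be given, and each difference is one between these 2 libraries.

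Skeletal muscle contracts as myosin thick filaments pull on actin thin filaments that are anchored in the Z disc, and the cycle starts when calcium leaves the sarcoplasmic reticulum and binds troponin. Most of these proteins exist as isoforms from separate genes, used by fast fibres, by slow fibres, by developing muscle or by the heart. Brown adipocytes store fat and hold no sarcomeres, although they share an embryonic precursor with skeletal muscle, and muscles of the back and shoulder lie directly beside the interscapular depot.

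The muscle genes were much lower in the Ucp1-KO library. Of 41 members, 40 reached the minimum mean used here, a normalised read count of 10, and 38 of these were at least 2-fold lower in Ucp1-KO, against 9.55% of all 15212 genes that reached it. None was at least 2-fold higher, against 7.42% of all genes. For 37 members even the whole counting interval lay below 2-fold lower, against 3.72% of all genes. A normalised count is the count divided by a size factor for the library, and the log2 ratio below is Ucp1-KO over wild-type on that scale. The median log2 ratio of the 40 members was -2.54, and that of all genes examined was -0.0016. Summed over the 41 members, the wild-type library had 462378 and the Ucp1-KO library 65080 counts. The log2 ratio of these sums was -2.53 with a 95% counting interval of -2.55 to -2.51, or 5.77-fold lower. Where counts or shares are paired below, wild-type comes first, and parentheses hold the log2 ratio and its interval. Their share of all counts was 0.873% in the wild-type library (exact binomial interval 0.870% to 0.877%) and 0.122% (0.121% to 0.124%) in the Ucp1-KO library. In such bulk tissue, fewer cells of a type and less RNA per cell cannot be told apart.

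The libraries held 52950913 and 53216727 counts. As a check of the labels, Ucp1 had 366473 wild-type and 37853 Ucp1-KO counts, which was 12.7% of the wild-type level after normalisation. The pools also differed in other ways. Of 4 genes on the Y chromosome (Eif2s3y, Kdm5d, Uty and Ddx3y) the wild-type library had 0 counts, and the Ucp1-KO library 5305 in sum. A fixed limit of 6 counts per gene was set for a count of 0. Xist, the RNA of the inactive X chromosome in females, had 32380 and 16478 counts. These values go against the description of both pools as male, for wild-type in both measures and for Ucp1-KO in Xist. The mitochondrial ribosomal RNAs took up 1.01% and 6.01% of the counts. The part of these differences in the results was not tested, and sex and genotype cannot be told apart here.

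**Figure D1:**
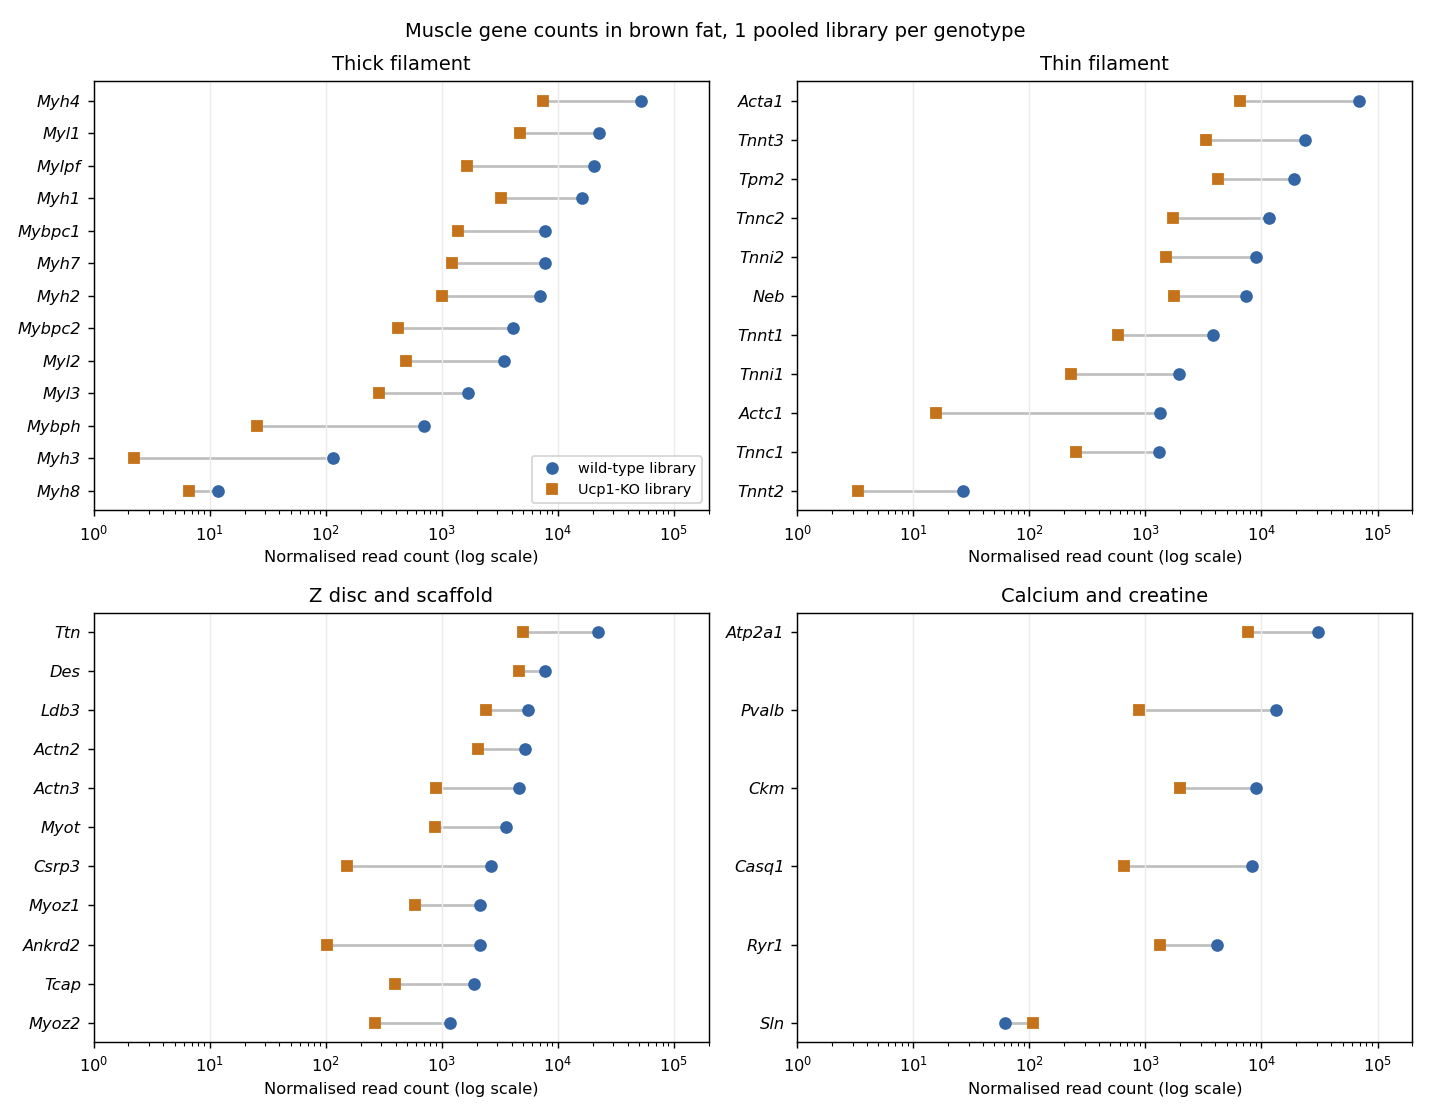
Normalised read count of each of the 41 members (log scale) in the wild-type library (blue circles) and the Ucp1-KO library (orange squares), in 4 panels by role, with 1 pooled library per genotype and so no error bars. In every panel the orange squares lie left of the blue circles, except for Sln, with 68 wild-type and 97 Ucp1-KO counts.

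The thick filament is made of myosin, whose heavy chains are the motors. Myh4, the heavy chain of the fastest fibres, was the heavy chain with most counts, with 57748 wild-type and 6751 Ucp1-KO counts (-2.80, -2.85 to -2.75). Myh1, of fast fibres as well, had 17914 and 2937 counts (-2.31, -2.39 to -2.23). Myh2, of fast oxidative fibres, had 7776 and 903 counts (-2.81, -2.95 to -2.67). The ratio of Myh1 was thus less negative than that of Myh4 and of Myh2 by more than the counting error. Myh7, the heavy chain of slow fibres that the heart also uses, had 8587 and 1098 counts (-2.67, -2.80 to -2.54). The interval of the slow chain overlapped those of Myh4 and Myh2 and not that of Myh1.

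The heavy chains of developing muscle were scarce in both libraries. Myh3, the embryonic heavy chain, had 129 wild-type and 2 Ucp1-KO counts, a log2 ratio of -5.42 with a wide interval of -11.04 to -3.18. Myh8, the perinatal heavy chain, had 13 and 6 counts, so its ratio of -0.77 (-3.42 to 1.36) lies within counting error, and it is the member that missed the minimum mean. At 20 days of age, then, almost all heavy chain counts in both pools came from the 4 adult isoforms. Of these 6 genes, 5 lie in 1 cluster of 230 kb on the plus strand, chr11:66969126-67199462 of GRCm39, in the order Myh3, Myh2, Myh1, Myh4 and Myh8. Their transcripts are alike in parts, and 3.89% to 8.20% of the 100-base windows of Myh1, Myh2, Myh4 and Myh8 occur in another of these genes, so a small part of their reads could be split between them. For Myh7 that share was 11.4%, all of it shared with the heart gene Myh6. No other member had a window in common with the other genes compared.

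The myosin light chains sit on the neck of the motor. Mylpf, the regulatory light chain of fast fibres, had 22810 wild-type and 1493 Ucp1-KO counts (-3.63, -3.74 to -3.53). Its slow and ventricular counterpart Myl2 had 3839 and 442 counts (-2.82, -3.03 to -2.62). Of the essential light chains, the fast Myl1 had 25015 and 4240 counts (-2.26, -2.33 to -2.19). The slow Myl3 had 1861 and 261 counts (-2.53, -2.81 to -2.27). Mylpf and Myl1, fast light chains that are partners in the same motor, thus differed from each other in ratio by more than their counting errors.

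Myosin binding proteins lie along the thick filament and modulate its motors. Mybpc1, named the slow isoform and listed here with slow fibres, had 8622 and 1238 counts (-2.50, -2.62 to -2.38). Mybpc2, of fast fibres, had 4604 and 378 counts (-3.31, -3.53 to -3.09). Mybph, a smaller relative of both, had 786 and 23 counts (-4.77, -5.78 to -3.96), the third lowest ratio of the members. Summed over the 13 thick filament genes the log2 ratio was -2.71 (-2.74 to -2.68), and all 12 that were examined were at least 2-fold lower.

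The thin filament is built on actin. Acta1, the actin of adult skeletal muscle, had the most counts of all members in wild-type and came after Atp2a1 and Myh4 in Ucp1-KO, with 76457 and 5916 counts (-3.39, -3.45 to -3.34). It alone made up 16.5% of the members' wild-type counts and 9.09% of their Ucp1-KO counts. Per kilobase of transcript it was also the highest member in wild-type, at 41817 normalised counts, while in Ucp1-KO its 3983 could not be told from the 3980 of Myl1. Actc1, the actin of the heart and of developing or regenerating muscle, had 1495 wild-type and 14 Ucp1-KO counts, a log2 ratio of -6.39 (-7.76 to -5.39) and the lowest of the 41. Of the counts of both actins, Actc1 was 1.92% (1.78% to 2.06%) in wild-type and 0.236% (0.0950% to 0.486%) in Ucp1-KO. The 2 actin transcripts had no 100-base window in common.

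The sequences just upstream of both actin genes and of 2 myosin heavy chains are shown here, because these 4 genes hold the lowest ratios of the members (Actc1 and Myh3) and the highest wild-type counts (Acta1 and Myh4). Each is the stretch of 250 bases before the start of the gene in RefSeq, written 5′ to 3′ on the strand of the gene, with E-boxes (CANNTG), MEF2 sites and CArG boxes in capitals. The positions are those of the single exact match in GRCm39. E-boxes are bound by the myogenic factors of the MyoD family, MEF2 sites by the MEF2 factors and CArG boxes by serum response factor.
Acta1, chr8:124621515-124621764, minus strand: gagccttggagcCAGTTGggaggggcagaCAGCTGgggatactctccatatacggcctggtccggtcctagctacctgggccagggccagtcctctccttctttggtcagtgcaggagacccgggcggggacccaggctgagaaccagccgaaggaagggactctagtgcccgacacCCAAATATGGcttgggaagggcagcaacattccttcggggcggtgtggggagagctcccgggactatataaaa
Actc1, chr2:113883357-113883606, minus strand: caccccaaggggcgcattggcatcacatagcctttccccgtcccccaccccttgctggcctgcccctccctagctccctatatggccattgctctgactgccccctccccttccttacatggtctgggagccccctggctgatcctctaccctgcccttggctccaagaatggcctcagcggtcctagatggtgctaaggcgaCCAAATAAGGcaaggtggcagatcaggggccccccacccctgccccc
Myh4, chr11:67128388-67128637, plus strand: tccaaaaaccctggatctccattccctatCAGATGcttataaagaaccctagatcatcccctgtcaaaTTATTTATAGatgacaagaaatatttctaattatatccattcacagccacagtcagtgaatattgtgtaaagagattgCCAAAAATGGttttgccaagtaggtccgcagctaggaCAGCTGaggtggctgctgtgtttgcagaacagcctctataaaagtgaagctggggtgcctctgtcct
Myh3, chr11:66968876-66969125, plus strand: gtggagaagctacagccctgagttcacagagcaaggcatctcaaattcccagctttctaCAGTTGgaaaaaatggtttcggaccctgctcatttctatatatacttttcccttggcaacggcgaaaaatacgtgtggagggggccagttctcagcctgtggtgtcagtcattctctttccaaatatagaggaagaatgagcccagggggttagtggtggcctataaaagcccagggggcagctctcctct

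Both actin windows held a CArG box, beginning 73 bases before the start in Acta1 and 47 bases before it in Actc1. Myh4 held a CArG box 104 bases and a MEF2 site 182 bases before its start, and Myh3 held neither. The GENCODE gene models, used here for lengths and positions, begin further upstream for Acta1, Actc1 and Myh4. These distances therefore refer to the RefSeq start alone. The RefSeq table had such windows for 33 members and not for Actn3, Tnnt3, Tnni2, Neb, Myoz1, Myot, Tcap and Sln. Searched on both strands, a MEF2 site or a CArG box was found for 10 of the 33 members (30.3%) and for 4.96% of all 27018 genes in the table. An E-box was found for 28 members (84.8%) and for 69.3% of all genes, since its letters are few. These matches describe the letters of these windows only.

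Troponin and tropomyosin put the thin filament under the control of calcium, and nebulin runs along its length. Tnnt3, the fast troponin T that binds tropomyosin, had 26079 wild-type and 3001 Ucp1-KO counts (-2.82, -2.90 to -2.74), and its slow counterpart Tnnt1 had 4237 and 523 (-2.72, -2.91 to -2.53). The inhibitory troponin I of fast fibres, Tnni2, had 9904 and 1369 counts (-2.55, -2.67 to -2.44), and the slow Tnni1 had 2154 and 206 (-3.08, -3.39 to -2.79). The calcium-binding troponin C of fast fibres, Tnnc2, had 12854 and 1546 counts (-2.76, -2.87 to -2.65), and the slow and cardiac Tnnc1 had 1454 and 228 (-2.37, -2.67 to -2.09). All 6 adult troponins were thus between 5.17-fold and 8.48-fold lower, with no common order of fast and slow. Tnnt2, the cardiac and embryonic troponin T, was scarce, with 30 and 3 counts (-2.85, -6.93 to -0.69).

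Tpm2, the beta tropomyosin, had 21257 wild-type and 3814 Ucp1-KO counts (-2.18, -2.25 to -2.11). Neb, which encodes nebulin, had 8141 and 1574 counts (-2.07, -2.18 to -1.96). Both were lower by less than the members in sum. Over the 11 thin filament genes the summed log2 ratio was -2.87 (-2.90 to -2.84), and all 11 were at least 2-fold lower.

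The Z disc genes were less uniform. Ttn, which encodes the giant protein titin that spans from Z disc to the middle of the sarcomere, had 24681 wild-type and 4518 Ucp1-KO counts (-2.15, -2.22 to -2.09). Actn3, the alpha-actinin of fast fibres that cross-links actin, had 5184 and 801 counts (-2.39, -2.55 to -2.24). Tcap, Myoz1, Myoz2 and Myot, small proteins that bind titin or alpha-actinin in the Z disc, had log2 ratios between -2.26 and -1.87. The lowest of this group were 2 muscle proteins that respond to mechanical strain. Ankrd2 had 2360 and 93 counts (-4.36, -4.82 to -3.94), and Csrp3, the muscle LIM protein, had 2947 and 139 (-4.10, -4.48 to -3.76).

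Actn2, Ldb3 and Des had much less negative ratios than the other Z disc and scaffold genes. Actn2, the alpha-actinin of all striated fibres, had 5823 wild-type and 1861 Ucp1-KO counts (-1.35, -1.45 to -1.24). Ldb3, a protein of the Z disc that binds alpha-actinin, had 6197 and 2185 counts (-1.20, -1.31 to -1.10). Des, which encodes the intermediate filament desmin of skeletal, cardiac and smooth muscle cells, had 8649 and 4169 counts (-0.75, -0.83 to -0.68), which was 59.3% of the wild-type level. Des thus took up 1.87% of the members' wild-type counts and 6.41% of their Ucp1-KO counts. Over the 11 genes the summed log2 ratio was -1.77 (-1.80 to -1.73), less negative than for either filament.

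The genes of calcium and creatine handling showed the widest range only with Sln, described below, and ran from -3.92 to -1.62 without it. Pvalb, parvalbumin, a calcium buffer of fast fibres, had 14889 wild-type and 796 Ucp1-KO counts (-3.92, -4.07 to -3.78). Casq1, the calcium store protein of the fast sarcoplasmic reticulum, had 9179 and 592 counts (-3.65, -3.83 to -3.49). Atp2a1, the calcium pump SERCA1 of fast fibres, had 34222 and 6950 counts, 25.0% of the wild-type level (24.1% to 25.9%), and Ryr1, the calcium release channel, had 4584 and 1215 (log2 ratio -1.62, -1.75 to -1.49). Pump, channel, store protein and buffer thus did not share 1 ratio. Ckm, the muscle creatine kinase, had 10025 and 1779 counts (-2.19, -2.30 to -2.09).

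Sln was the exception among the 41. It encodes sarcolipin, a small peptide that binds SERCA pumps and makes them use ATP without moving calcium, a known source of heat in muscle. Its wild-type count was 68 (95% Poisson interval 47.1 to 95.02) and its Ucp1-KO count 97 (71.6 to 128). The log2 ratio was 0.81 (0.15 to 1.49). Such an interval wholly above 0 was found for 31.5% of all genes examined, and one wholly below 0, as in 39 of the 40 examined members, for 30.5%. With scaling to total counts its ratio was 0.50 (-0.16 to 1.18), within counting error. Sln was scarce in both pools, with 46.5 and 81.7 normalised counts per kilobase against 7449 and 1862 for Atp2a1.

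**Figure D2:**
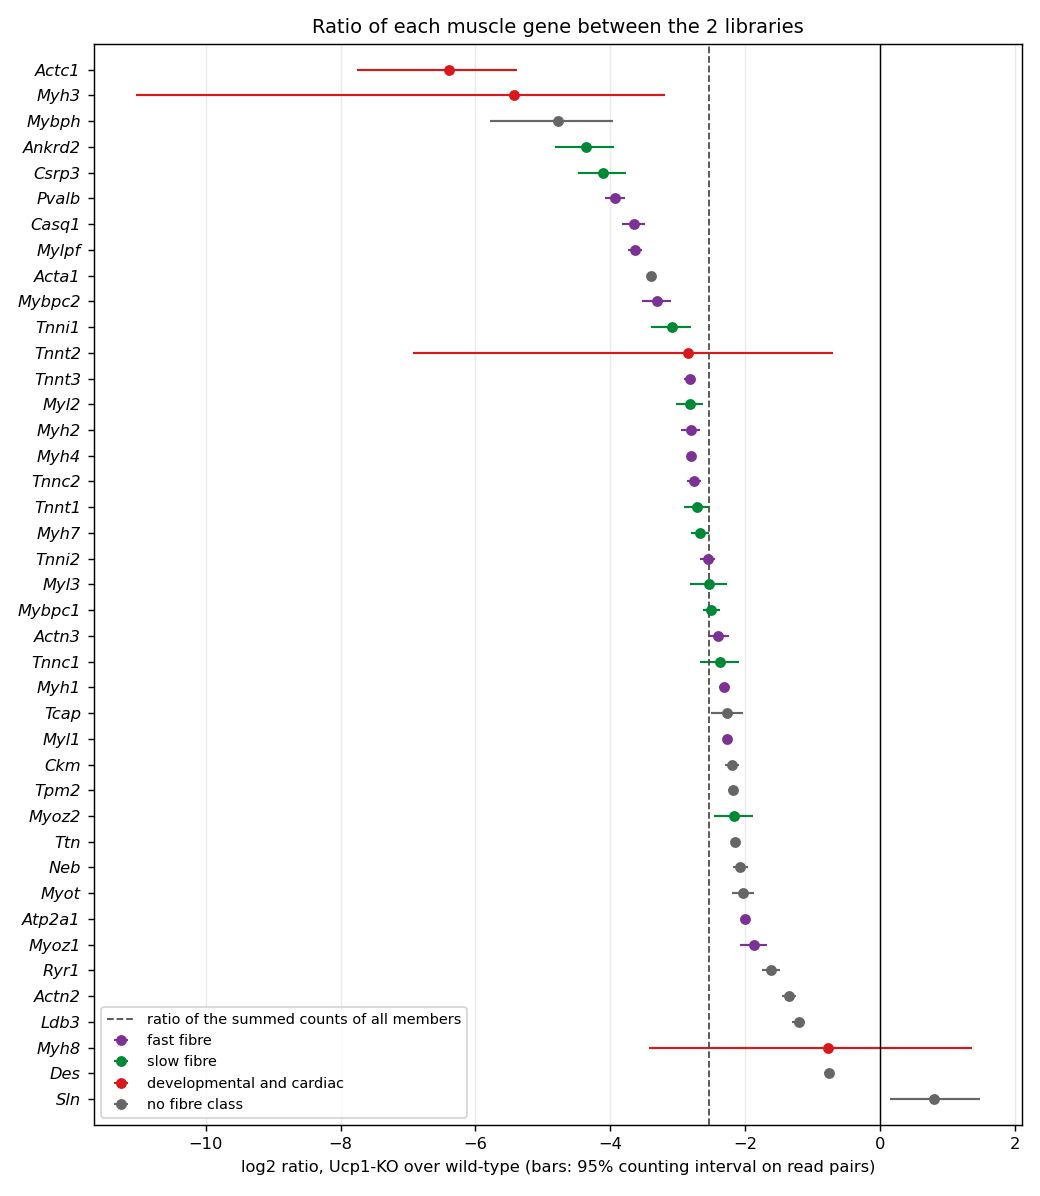
The log2 ratio of Ucp1-KO over wild-type for each member, ordered from lowest (top) to highest, with horizontal bars for the 95% counting interval on read pairs and colours for the fibre class. The dashed line marks the ratio of the summed counts, -2.53. Most fast and slow fibre genes lie near it, Actc1 and Myh3 far to its left, and Actn2, Ldb3, Des and Sln to its right.

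Taken by fibre class, fast and slow genes were lower to nearly the same degree. The 14 genes of fast fibres had a summed log2 ratio of -2.66 (-2.68 to -2.63) and a median of -2.78, from Pvalb at -3.92 to Myoz1 at -1.87. The 10 genes of slow fibres had a summed log2 ratio of -2.77 (-2.83 to -2.70) and a median of -2.69, from Ankrd2 at -4.36 to Myoz2 at -2.16. All 14 and all 10 were at least 2-fold lower. Slow fibre genes made up 13.0% of the slow and fast wild-type counts (12.8% to 13.2%) and 12.2% (11.7% to 12.6%) of those in Ucp1-KO. Mybpc1 gave 8622 of the 37374 wild-type counts of the slow list, and without it the slow sum was at -2.86. With the contractile slow isoforms alone, without Csrp3, Ankrd2 and Myoz2, the slow sum was at -2.64. The fast list was not trimmed in the same way, so this value has no like fast sum beside it.

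The 4 genes of developing muscle and heart had in sum a far lower ratio, which rested on Actc1, with 1667 wild-type and 25 Ucp1-KO counts and a summed log2 ratio of -5.76 (-6.70 to -4.96). Actc1 gave 1495 of the 1667 and 14 of the 25 counts, and without it the sum was at -3.67 (-5.23 to -2.44), an interval that includes the -2.53 of all members. Of the 4 genes, 3 had 6 counts or fewer in Ucp1-KO, so the size of their ratios is poorly fixed, and the intervals of Tnnt2 and Myh8 include -2.53 as well. The 13 genes that no fibre class claims had a summed log2 ratio of -2.31 (-2.34 to -2.28), and they span from Mybph to Sln.

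Ratios within a library do not depend on how the libraries are scaled to each other. The slow Myh7 was 9.32% of the counts of the 6 heavy chains (9.05% to 9.59%) in wild-type and 9.39% (8.65% to 10.2%) in Ucp1-KO. Myh4 was 62.7% (62.2% to 63.1%) and 57.7% (56.4% to 59.0%), while Myh1 was 19.4% (19.1% to 19.8%) and 25.1% (24.0% to 26.2%). Myh2 was 8.44% (8.18% to 8.69%) and 7.72% (7.05% to 8.43%). The slow share of the heavy chains was thus equal within counting error, whereas among the fast chains the balance of Myh4 and Myh1 differed beyond it. Per length of transcript the order was the same, with Myh4 at 66.2% and 61.8% and Myh1 at 16.2% and 21.2%.

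Pairs of slow and fast isoforms were compared in the same manner, by the log2 odds of slow over fast in Ucp1-KO against wild-type with an exact conditional interval. Of 8 pairs, 3 had a slow share that was higher in Ucp1-KO beyond counting error, 2 a lower one, and in 3 the interval included 0. The pairs of troponin T (0.10, -0.10 to 0.31), of the heavy chains Myh7 against Myh1, Myh2 and Myh4 (0.01, -0.13 to 0.15) and of the calsarcins Myoz2 and Myoz1 (-0.29, -0.64 to 0.06) were in the last group. The slow share was higher for the regulatory light chains (0.81, 0.58 to 1.05), at 14.4% and 22.8%, for the myosin binding proteins C (0.81, 0.56 to 1.06), at 65.2% and 76.6%, and for troponin C (0.38, 0.06 to 0.69). It was lower for troponin I (-0.53, -0.86 to -0.21), and for the essential light chains the interval only just left 0 (-0.27, -0.56 to -0.0029). In wild-type, Mybpc1 was the larger part of its pair, at 65.2%, unlike the slow isoform of every other pair. Whether Mybpc1 marks slow fibres alone was not tested. The 8 pairs thus did not all shift one way.

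**Figure D3:**
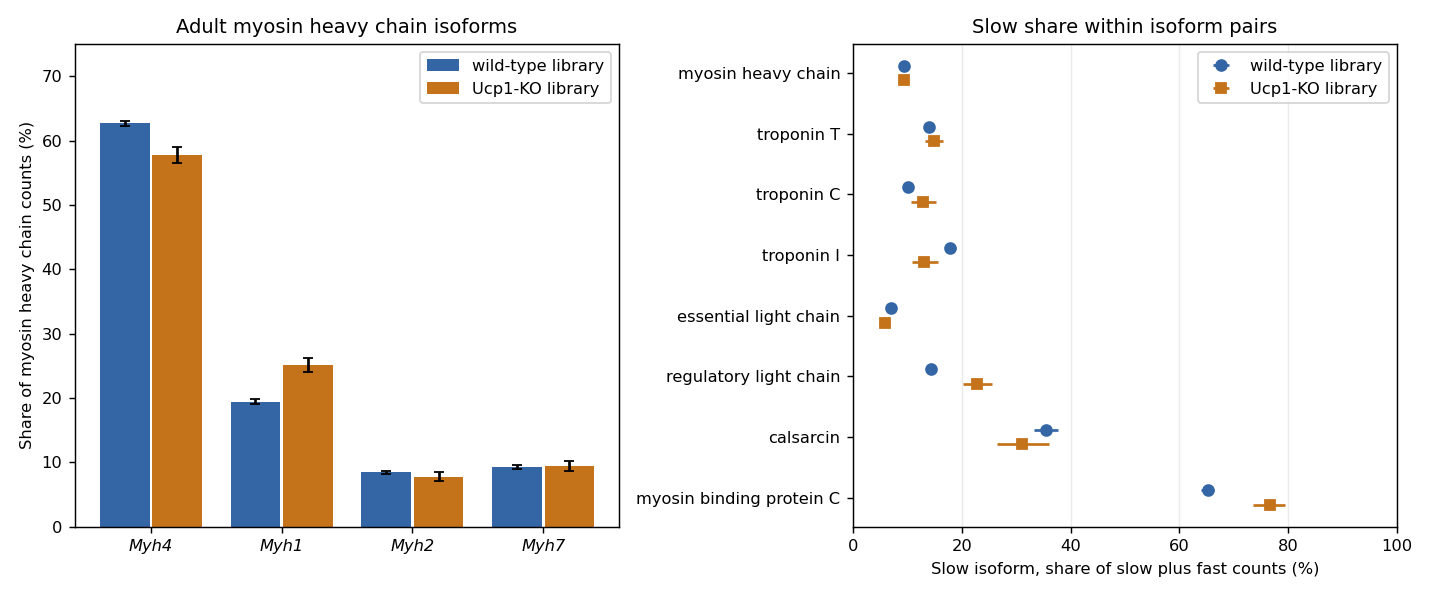
Left, share of the 4 adult isoforms in the counts of the 6 member myosin heavy chains, in percent, in the wild-type (blue) and Ucp1-KO (orange) library. Right, share of the slow isoform in the counts of slow and fast isoform together for 8 pairs, and in both panels bars give exact 95% binomial intervals on read pairs. Myh7 is at 9.32% and 9.39%, while the slow share of the regulatory light chains is at 14.4% and 22.8%.

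The members did not share 1 ratio. Of the 41, 34 had a counting interval that excluded the summed ratio of -2.53, with 18 below it and 16 above it. Counting error is small for such abundant genes, and 21 members were within 0.5 of the summed ratio on the log2 scale and 28 within 1. Of the 7 members whose interval included it, 5 were well-counted sarcomere genes (Tnni2, Myl3, Mybpc1, Actn3 and Tnnc1), and Tnnt2 and Myh8 were too scarce to tell. The order from low to high ran from Actc1, Myh3, Mybph, Ankrd2, Csrp3 and Pvalb to Ryr1, Actn2, Ldb3, Myh8, Des and Sln.

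Of the 11768 genes whose mean reached 100 normalised counts, 139 were at least 4-fold lower in Ucp1-KO. Of these, 32 were members, 22 stood on the lists of other muscle genes described next, and 85 were on none of these lists. In all, 37 members reached that mean.

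Other genes of the sarcomere and of excitation-contraction coupling were lower too, by less. Of 35 genes examined, 28 were at least 2-fold lower, the median log2 ratio was -1.81, and the summed counts of 78419 and 21906 gave -1.54 (-1.57 to -1.51). Mylk4, a muscle kinase, was at -3.83 (-5.15 to -2.82), Smyd1, a methyltransferase needed for myofibril assembly, at -3.07 (-3.43 to -2.72) and Synpo2l at -2.91 (-3.63 to -2.29). The most abundant were Fhl1, a LIM protein (25540 and 9820 counts, -1.08), Srl, sarcalumenin of the sarcoplasmic reticulum (7953 and 1748, -1.89), and Myom1, which links myosin in the middle of the sarcomere (4306 and 1789, -0.97). Mylk2 (0.02) and Trdn (-0.17), named after their values were seen, were the 2 genes whose intervals included 0.

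Metabolic genes of muscle ranged from ratios like those of the members to higher levels in Ucp1-KO. Pgam2, the muscle phosphoglycerate mutase (-3.16, -3.48 to -2.86), Ckmt2, the mitochondrial creatine kinase of striated muscle (-3.09, -3.36 to -2.83), and Mb, myoglobin (-2.40, -2.56 to -2.25), were lowest. The most abundant of the list are genes that brown fat expresses strongly as well, Cox8b of cytochrome c oxidase (39739 and 26165 counts, -0.30), the glucose transporter Slc2a4 (27605 and 17771, -0.34) and the fatty acid binding protein Fabp3 (18351 and 49096, 1.72). In all, 8 of 18 genes were at least 2-fold lower and 1 at least 2-fold higher, and the summed log2 ratio was 0.05 (0.03 to 0.06).

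Regulators of muscle identity were scarce. Myf6, the myogenic factor of mature fibres, had 298 wild-type and 29 Ucp1-KO counts (-3.04, -3.95 to -2.28). Myog, which drives differentiation, had 60 and 2 counts (-4.33, -9.96 to -2.02), and Chodl, a membrane lectin of muscle, had 31 and 2 (-3.39, -9.05 to -0.96). Myod1 had 26 and 24 counts (0.18, -1.08 to 1.43), within counting error. Myf5 and the fusion genes Mymk and Mymx had 0 counts in both libraries, and the satellite cell factors Pax7 and Pax3 had 2 and 6 wild-type and 0 Ucp1-KO counts, all at or below the limit of 6 counts.

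At the neuromuscular junction, 7 genes were examined with a median log2 ratio of -0.96, and 1 was at least 2-fold lower. Chrna1, a subunit of the acetylcholine receptor, had 64 and 6 counts (-3.02, -5.47 to -1.44). Chrnb1, another subunit, had 1165 and 615 counts (-0.62, -0.83 to -0.42). Lrp4, the agrin receptor, was at -0.96 (-1.61 to -0.34), and Dok7 and Rapsn, which cluster the receptor, were both at -0.97 with intervals that reach 0.00.

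Genes used mainly by the heart were scarce and had no common direction. The cardiac-only genes Myl7, Mybpc3 and Nppb had 0 counts in both libraries, and Nppa had 0 and 2. Myh6, a heavy chain of the heart, had 64 and 2 counts (-4.42, -10.05 to -2.12), next to Myh7 with which it shares sequence. Myl4, a light chain of the atrium and of embryonic muscle, was higher in Ucp1-KO, with 199 and 313 counts (0.95, 0.58 to 1.33). Tnni3 (0.58, -1.09 to 2.35) and Sbk2 (-0.50, -1.24 to 0.21) were within counting error. Of the 8 genes of this list, 4 were examined, with a median log2 ratio of 0.04.

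Smooth muscle genes had ratios closer to 0 than most members. Their median log2 ratio was -0.71, and of 8 genes 1 was at least 2-fold lower and 1 at least 2-fold higher. Acta2, smooth muscle actin, had 4982 and 1989 counts (-1.02, -1.13 to -0.92), Myh11, the smooth muscle heavy chain, was at -0.76 (-0.91 to -0.62), Smtn at -0.73 (-0.85 to -0.62) and Myocd at -0.98 (-2.02 to -0.04). Cnn1, calponin, was higher (230 and 677 counts, 1.85). Des, which smooth muscle shares, had a ratio of -0.75, and which cells its counts came from was not tested.

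Tendon genes were scarce, with 313 wild-type and 336 Ucp1-KO counts over the list. Thbs4 was at 0.83 (0.43 to 1.24), Scx at -0.21 (-1.35 to 0.89), Fmod at -0.27 (-1.06 to 0.49) and Comp, with 22 and 2 counts, at -2.90 (-8.59 to -0.38). Tnmd and Mkx had 0 counts in both libraries. No common direction was seen.

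Widely expressed relatives of the members were close to equal, with a median log2 ratio of 0.18 over 19 genes. The cytoskeletal actin Actb had 39394 and 41143 counts (0.36, 0.33 to 0.39), vimentin, Vim, was at 0.52 (0.49 to 0.56), and the light chain Myl6 at -0.04 (-0.08 to -0.0044). The brain-type creatine kinase Ckb was at 0.78 (0.68 to 0.87), unlike its muscle counterpart Ckm at -2.19. Tpm1, which striated muscle also uses, was the lowest at -1.13 (-1.19 to -1.07), and Myl9, abundant in smooth muscle, was at -0.70 (-0.83 to -0.57). Of the 19 genes, 1 was at least 2-fold lower, and 10 had an interval wholly above 0 and 7 one wholly below it.

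Brown adipocyte genes had ratios in both directions. Over 15 genes the median log2 ratio was 0.28, with 1 gene, Ucp1, at least 2-fold lower and 4 at least 2-fold higher. Dio2, the deiodinase that activates thyroid hormone, was at 2.28 (2.23 to 2.32) and the elongase Elovl3 at 2.52 (2.42 to 2.63). The abundant Fabp4 (0.15, 0.15 to 0.16) and Cidea (0.49, 0.48 to 0.51) were near equal or higher. Apart from Ucp1, 3 genes were lower beyond counting error, Cox8b (-0.30), Plin5 (-0.23) and Cox7a1 (-0.19), the last 2 named after their values were seen. With Ucp1 included, the summed log2 ratio of the list was -0.24. Ucp1 itself gave 366473 of the list's 977767 wild-type and 37853 of its 674448 Ucp1-KO counts, and no sum without it was computed. Of the 15 genes, 8 had an interval wholly above 0 and 4, Ucp1 among them, one wholly below it. Whether the amount of skeletal muscle taken with the depot differed between the pools was not tested, since the labels record no muscle content and each genotype has 1 pool.

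**Figure D4:**
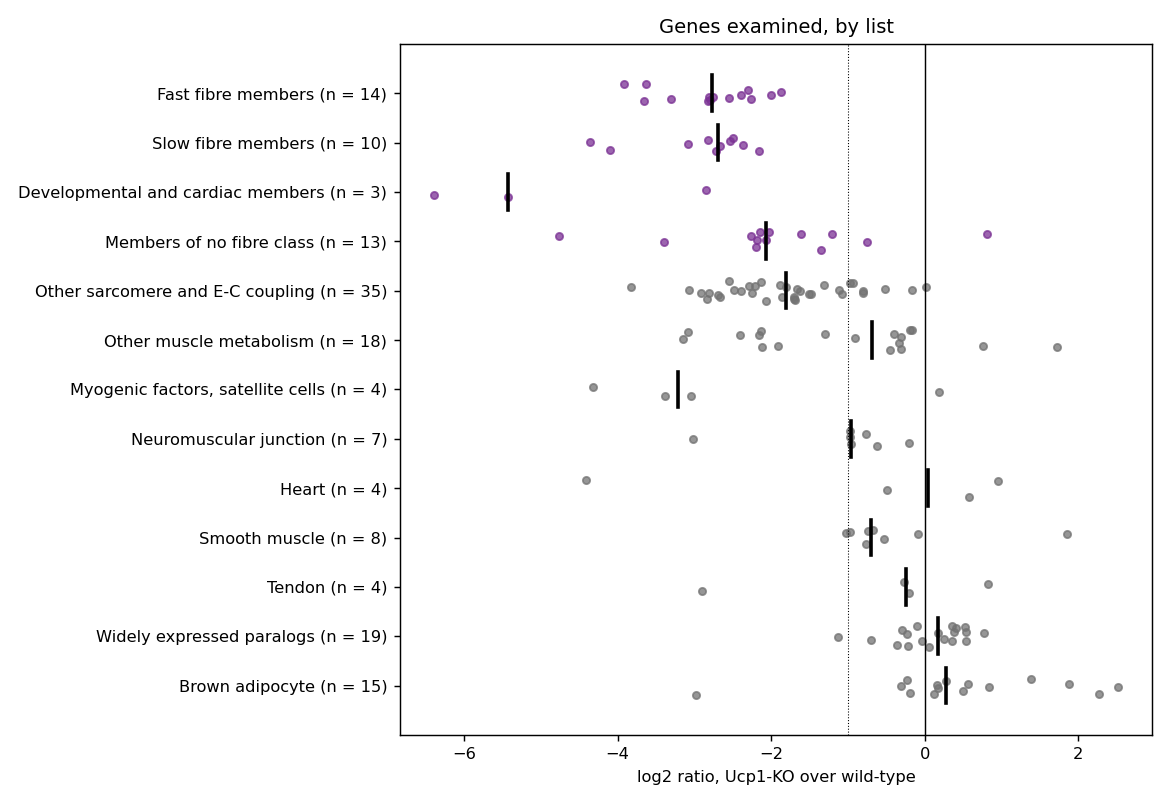
Each point is the log2 ratio of 1 examined gene, Ucp1-KO over wild-type, in lists of members by fibre class (purple) and lists of other genes (grey), with a black bar at the median and n the number of genes. The dotted line marks 2-fold lower. Fast and slow fibre members lie between -4.36 and -1.87, while the medians of smooth muscle (-0.71), widely expressed paralogs (0.18) and brown adipocyte genes (0.28) lie between -1 and 1.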

How the data were processed

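RNA of iBAT was sequenced from directional, poly-A enriched libraries. The authors deposited raw featureCounts counts, 1 whole number for each gene and library, with no normalisation. The processing notes name Trim Galore, HISAT2 and the build mm39 (GRCm39), while the annotation and the settings for strand and multi-mapping reads are not given in the sources used here. Antisense and overlapping genes are therefore uncertain.

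Size factors were medians of ratios (DESeq2 1.42.0, R 4.3.3), 1.11 for wild-type and 0.901 for Ucp1-KO. Log2 ratios used a pseudocount of 0.5. Of genes with 1 to 10 counts, 70.7% and 73.4% had an even count, as when both mates are counted, so intervals (95%) were computed on read pairs, counts divided by 2: exact Poisson for counts, Clopper-Pearson for shares and ratios. For a count of 0, a fixed limit of 3 pairs, or 6 counts, was set, whereas its exact Poisson interval reaches 7.38 counts. No molecular identifiers are described, so copies of 1 molecule can be counted repeatedly, and the intervals cover counting error alone. The ratio computation was tested on simulated data. Alternatives used TMM factors (edgeR 4.0.16), total counts, other filters, pseudocounts and sets of members.

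Lengths and positions are from GENCODE mouse release 39 by symbol, and all 41 members matched. Upstream sequences are from RefSeq. All members are accounted for. Of every other list the 3 genes with the largest log2 ratio in size and the 3 with most counts are named. Members and lists were chosen with earlier results of these data known. No columns went unused.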

Additional observations from a re-analysis of the deposited data

How the results depend on the processing

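No paired analysis was possible because only 1 library per genotype exists to compare, and for the same reason no library could be left out. Total counts in place of median-of-ratios factors shifted the median of all genes to -0.31, and with it the members' sum to -2.84 and median to -2.85, the fast sum to -2.96 and the slow sum to -3.07. TMM factors and total counts without mitochondrially encoded genes left the members', fast and slow sums within their counting intervals. The members' median, which has no such interval, was -2.55 with the former and -2.56 with the latter. Of the 41 members, 40 had a ratio below 0 under each of the 4 scalings, under which the median of all genes ran from -0.31 to -0.0016. Without Acta1 the members' sum was -2.41, and without the 5 members that share windows with a paralog, an alternative chosen after seeing the data, -2.49. The fast sum without Myh4 was -2.62. The slow sum without Mybpc1 was -2.86, and with contractile isoforms alone -2.64. The developmental and cardiac sum without Actc1 was -3.67. Fewer or other members make these sums by construction. Filters on low counts and stricter size rules left 36 to 38 members called lower, and total counts gave 39. With total counts, 15.2% of all genes were at least 2-fold lower, against 9.55% with the main factors. For the other filters and the rule of a log2 ratio of -1.5 or below, no share of all genes was computed. With a pseudocount of 5 the members' median was -2.50. With intervals on the counts as deposited 36 members in place of 34 excluded the summed ratio.

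Per length of the canonical transcript, the shares in wild-type were 66.2% for Myh4, 16.2% for Myh1 and 7.81% for Myh2, and in Ucp1-KO 61.8% for Myh4 and 21.2% for Myh1. Per length of all exons joined, also chosen after seeing the data, they were 69.7%, 16.1%, 7.22% and, for Myh7, 6.87% in wild-type and 65.1%, 21.1%, 6.70% and 7.03% in Ucp1-KO. Depth limits Myh3, Myh8, Tnnt2 and Sln, whose intervals are wide.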
